A study of Mus musculus with 93 samples.

Results

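The genes described here encode the collagen chains of the mouse other than Col4a1 and Col4a2, the main chains of basement membrane collagen. They were chosen by name: each gene name in the count tables made of Col, a type number, the letter a and a chain number of 1 digit was taken, and Col4a1 and Col4a2 were left out. This gave 41 of 33924 gene names. Of these, 11 encode fibrillar chains (types I, II, III, V, XI, XXIV and XXVII) and 30 encode the chains of other types. The RNA came from R1 cells, a mouse embryonic stem cell line that per the labels grew in serum with leukaemia inhibitory factor (LIF). Of the 93 samples of the series, 12 RNA libraries were analysed. In set 1, 3 libraries came from cells labelled Ring1b I53A, which carry a point mutation in the Polycomb protein Ring1b, and 3 came from wild type cells. In set 2, 3 libraries carried the label H1b/c/d/e-QKO, a quadruple knockout of linker histone genes, and 3 came from a wild type group of their own. The labels state neither whether replicates are separate cultures nor whether a mutant line is 1 clone. The p-values therefore measure the spread among libraries, and that spread may be technical.

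Collagens are secreted or membrane-bound proteins whose chains wind around each other into a stiff helical rod. Fibrillar chains pack side by side into the banded fibrils of bone, skin, tendon and cartilage, while the others form networks, beaded filaments or anchoring fibrils, sit on the surface of fibrils, or span the cell membrane. A working molecule needs the right chains together, so the levels of partner chains matter, and the new chains must be hydroxylated, folded by chaperones, trimmed and crosslinked. Ring1b is the subunit through which Polycomb repressive complex 1 places ubiquitin on histone H2A, and linker histones bind between nucleosomes and compact chromatin. Mouse embryonic stem cells are derived from the early embryo, where basement membrane collagen is a product of the primitive endoderm.

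Library totals ranged from 12585621 to 23378930 counts. In set 1, replicate 3 of both groups stood apart: chi-square values per degree of freedom against replicates 1 and 2 were 23.0 to 29.7, compared with 4.25 between replicates 1 and 2 of I53A and 3.02 between those of wild type. These libraries were the shallowest of their groups and their tables are named in another style, so calls are also given from replicates 1 and 2 alone. Rnf2, the gene of Ring1b, averaged 93.2 ± 6.58 CPM (counts scaled to library size within the set) in I53A and 186 ± 7.72 CPM in wild type (SD, n = 3 each), which does not check a point mutation. Rnf2 was called lower in I53A, with a log2 fold change of -0.998 (edgeR adjusted p = 5.63e-05). It was also called lower in libraries labelled QKO, at -0.178 (edgeR adjusted p = 0.000469). The part of the lower Rnf2 level in the I53A results was not tested. None of the 3 linker histone genes tested (Hist1h1b, Hist1h1c and Hist1h1d) was called lower in the libraries labelled QKO; the labels do not say whether the alleles remove the transcript, so these libraries are called by their label. Hist1h1b had 62, 53 and 72 counts in the libraries labelled QKO and 4, 9 and 2 counts in wild type, and Hist1h1c averaged 8.30 ± 1.04 CPM in the libraries labelled QKO and 9.11 ± 0.706 CPM in wild type. The embryonic stem cell markers Pou5f1, Nanog, Sox2, Zfp42, Esrrb, Utf1 and Tdgf1 were expressed in every group. Their summed level was 4279 to 4652 CPM in I53A and 5248 to 5663 CPM in its wild type. It was 6501 to 6610 CPM in the libraries labelled QKO and 5392 to 5439 CPM in their wild type. Of the 7, 1 rose and 4 fell in I53A, where 18.1% of all genes tested rose and 17.4% fell. In libraries labelled QKO 5 rose and 1 fell, where 28.7% of all genes tested rose and 29.0% fell.

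Collagen genes with enough reads for a test were called higher more often than lower in each mutant, while Col18a1, the most abundant of them, was lower in both. In I53A, 27 of the 41 genes passed the filter on low counts; 14 of these rose and 1, Col18a1, fell (edgeR's quasi-likelihood test, Benjamini-Hochberg adjusted p under 0.05 over all genes). Of all 15536 genes tested in that comparison, 18.1% rose and 17.4% fell, 35.5% in all. In the libraries labelled QKO, 27 of the 41 passed the filter; 18 rose and 4 fell (Col2a1, Col7a1, Col8a2 and Col18a1), where 28.7% of all 15439 genes tested rose and 29.0% fell, 57.7% in all. The median log2 fold change was 1.03 in I53A and 0.92 in libraries labelled QKO for the tested collagen genes, and -0.00103 and -0.00334 for all genes tested. The filter can be passed through the higher group alone, so these counts describe the tested genes and not the 14 others of each comparison. With the replicate number of set 1 as a block, the calls over all genes went up to 4371 higher and 4427 lower, and the collagen calls were 15 higher and 1 lower. From replicates 1 and 2 of set 1 alone, 16 collagen genes were higher and 1 was lower. Groups that do not overlap were common over all genes tested: every mutant library was above every wild type library for 24.7% of genes in I53A and 30.6% in libraries labelled QKO, and below for 24.7% and 30.9%. In bulk RNA, more cells of a type and more RNA per cell cannot be told apart.

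Split by kind, 9 of the 11 fibrillar genes were tested in each comparison. In I53A, 6 of them rose and 3 were not called (Col2a1, Col5a3 and Col11a2), and in libraries labelled QKO, 8 rose and 1 fell. Of the 30 other collagen genes, 18 were tested in each comparison, of which 8 rose and 1 fell in I53A and 10 rose and 3 fell in libraries labelled QKO. Among the 24 genes tested in both comparisons, 10 rose in both (Col1a1, Col1a2, Col4a5, Col5a1, Col5a2, Col6a4, Col9a2, Col11a1, Col22a1 and Col27a1), a share of 41.7%, while 7.55% of the 14589 genes tested in both rose in both. Col18a1 alone fell in both, 4.17% of the 24, where 7.80% of all genes did. No collagen gene was called in opposite directions, which 7.70% of all genes were. The sets have separate wild type libraries, so the comparisons share no control samples.

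**Figure D1:**
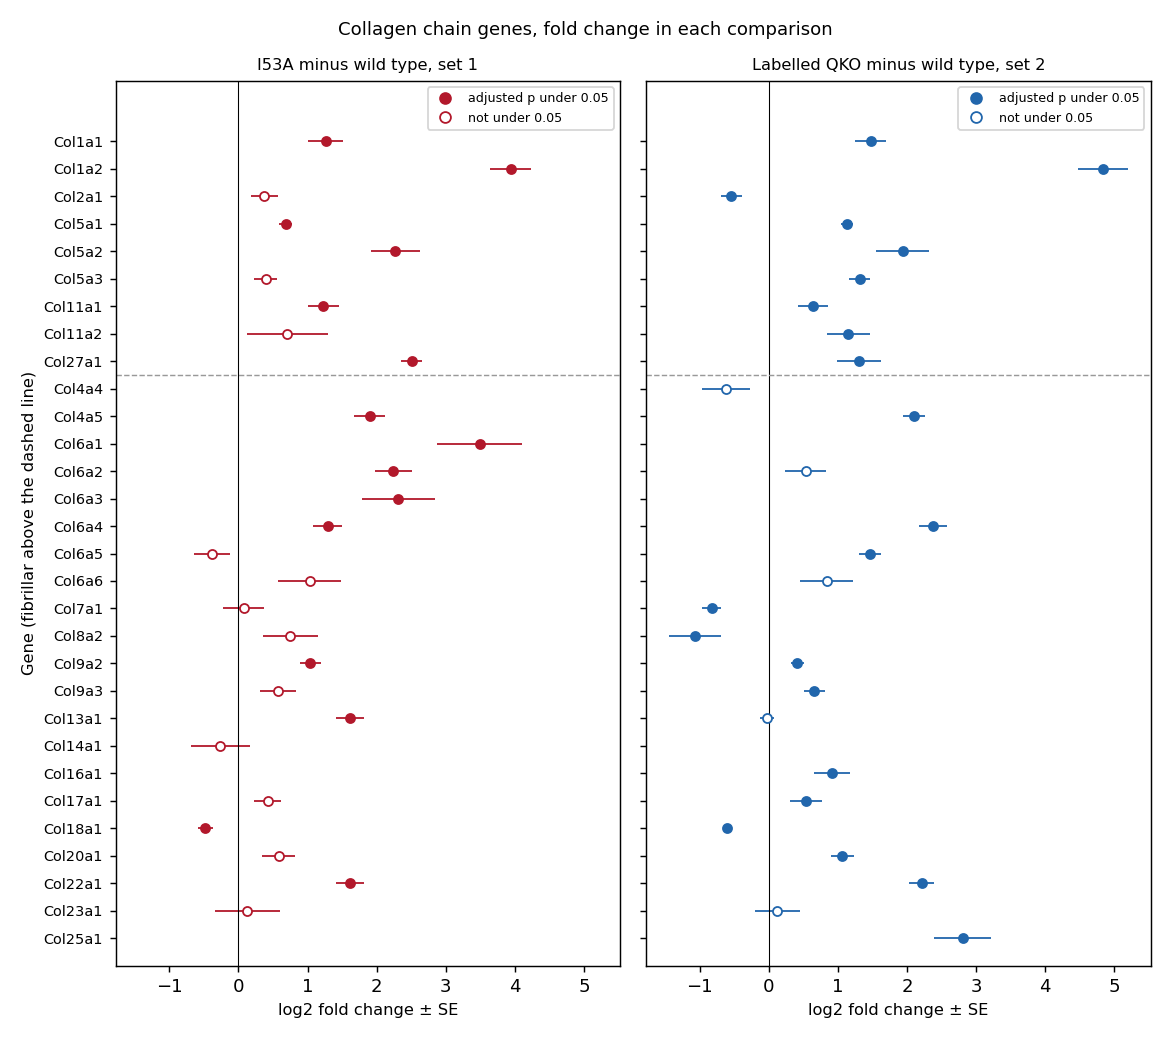
Log2 fold change with its standard error for each collagen gene tested in at least 1 comparison, I53A minus wild type at the left and labelled QKO minus wild type at the right. Filled points passed an adjusted p of 0.05; fibrillar genes stand above the dashed line, and a gene not tested in a comparison has no point there. Most points lie right of 0, Col1a2 has the largest value in both panels, and Col18a1 lies left of 0 in both.

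Markers of other cell types changed as well, not all in the direction of the collagen genes, and their part in the results was not tested. Over all genes tested, 18.1% rose and 17.4% fell in I53A, and 28.7% rose and 29.0% fell in libraries labelled QKO. Where few markers were tested, counts near these shares are no result about a cell type. All 9 primitive endoderm markers rose in I53A, with a summed level of 424 to 459 CPM in I53A and 14.1 to 16.1 CPM in wild type, and none of them was at 0 in any group. In set 2, 3 of 6 tested rose, with 15.6 to 17.3 CPM in libraries labelled QKO and 10.6 to 11.8 CPM in wild type. Of 12 fibroblast markers, 5 were tested in I53A and 4 rose, with a sum of 60.8 to 63.3 CPM in I53A and 28.9 to 30.3 CPM in wild type, most of it from Thy1 and Pdgfrb; in libraries labelled QKO 1 of 4 tested rose, with 34.7 to 36.4 CPM in libraries labelled QKO and 23.6 to 24.1 CPM in wild type. Lum was at 0 in I53A, and Postn, Dcn, Fap and Prrx1 were at 0 in its wild type; Dcn and Lum were at 0 in libraries labelled QKO, and 8 of the 12 were at 0 in wild type of set 2. Of 8 cartilage and bone markers, 4 were tested in each comparison; Acan rose in both, Matn1 and Matn3 fell in I53A, and Matn3 fell in libraries labelled QKO. They summed to 32.1 to 37.5 CPM in I53A and 22.2 to 26.5 CPM in wild type, and to 39.5 to 42.0 CPM in libraries labelled QKO and 13.1 to 17.1 CPM in wild type, and Ibsp was at 0 in all groups and Runx2 in wild type of set 2. Of 4 neural markers tested, 1 rose and 1 fell in I53A (123 to 143 CPM in I53A and 105 to 124 CPM in wild type), and 2 rose and 1 fell in libraries labelled QKO (184 to 186 CPM in libraries labelled QKO and 100.2 to 109 CPM in wild type). Of 5 endothelial markers, 1 rose and 2 fell of 3 tested in I53A (85.4 to 95.2 CPM in I53A and 138 to 161 CPM in wild type), and 1 rose and 1 fell of 2 tested in libraries labelled QKO (121 to 129.5 CPM in libraries labelled QKO and 74.9 to 82.5 CPM in wild type); Emcn was at 0 in wild type of set 1 and in both groups of set 2.

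The sequence before the start site of 4 genes is shown to set genes of unlike behaviour side by side, from RefSeq promoter windows on the GRCm38.p6 build. Each line gives the 150 bases up to the start, 5′ to 3′ on the gene's strand, with CpG dinucleotides in capitals. Col1a2 and Col27a1 rose in both mutants, Col6a1 was called higher in I53A, and Col18a1 fell in both; for Col18a1 the first of its annotated starts is shown.
Col1a2 (chr6:4505468-4505617, plus strand): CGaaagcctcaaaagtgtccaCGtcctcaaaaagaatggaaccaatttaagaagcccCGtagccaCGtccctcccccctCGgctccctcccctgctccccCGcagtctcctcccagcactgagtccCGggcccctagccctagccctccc
Col27a1 (chr4:63215262-63215411, plus strand): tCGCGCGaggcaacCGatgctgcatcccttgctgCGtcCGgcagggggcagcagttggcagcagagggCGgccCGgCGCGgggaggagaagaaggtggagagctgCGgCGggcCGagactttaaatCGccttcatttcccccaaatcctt
Col6a1 (chr10:76726045-76726194, minus strand): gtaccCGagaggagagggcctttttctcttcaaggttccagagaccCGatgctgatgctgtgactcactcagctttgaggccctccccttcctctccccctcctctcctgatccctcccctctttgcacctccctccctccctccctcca
Col18a1 (chr10:77166531-77166680, minus strand): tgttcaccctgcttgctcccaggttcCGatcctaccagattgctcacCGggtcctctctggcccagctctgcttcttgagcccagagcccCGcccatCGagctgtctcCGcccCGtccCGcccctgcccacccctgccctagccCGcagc
These stretches held 7 CpG in Col1a2, 14 in Col27a1, 2 in Col6a1 and 8 in Col18a1. Windows of 300 bases (250 before the start and 50 after) were found for 33 of the 41 genes, in 36 windows; they held a median of 10.5 CpG, against 7 in all 32851 windows of the table. The GC box letters GGGCGG, searched on both strands, stood in the windows of all 7 genes with a window that rose in both mutants. They stood in 71.4% of the 7 windows of the 6 tested genes with a window that rose in neither. The share was 58.3% of the collagen windows and 35.7% of all windows. Among the 10 windows of collagen genes tested in neither comparison it was 20%. The letters CCAAT stood in 57.1% of the windows of genes that rose in both mutants and in 28.6% of those of tested genes that rose in neither. Their share was 30.6% of the collagen windows, 10% of those of collagen genes tested in neither comparison, and 37.4% of all windows. TATAAA stood in 13.9% of the collagen windows and in 13.6% of all. It stood in 0% of the windows of genes that rose in both or of tested genes that rose in neither. A match is a description of the letters and no evidence of binding.

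Among the fibrillar collagens, type I collagen, the main collagen of bone, skin and tendon, is usually built from both the Col1a1 and the Col1a2 chain. Both genes rose in both mutants, and Col1a2 moved furthest of all collagen genes tested. Col1a2 lies on chromosome 6 from 4454814 to 4491543 on the plus strand (mm9, the build of the deposited tables and of all gene positions below). It had 5.10, 5.12 and 4.26 CPM in I53A, against 0.225, 0.335 and 0.382 CPM in wild type, from 92, 91 and 54 counts and 4, 6 and 5 counts. It had 4.96, 5.34 and 3.79 CPM in libraries labelled QKO, against 0.0580, 0.331 and 0.0927 CPM in wild type, from 116, 86 and 81 counts and 1, 6 and 2 counts. All mutant libraries were more than 10 times above every wild type library of their set. The log2 fold change was 3.94 ± 0.29 (SE; all changes below are log2 fold changes with their SE) in I53A, with edgeR adjusted p = 4.49e-05, and 4.83 ± 0.36 in libraries labelled QKO, with edgeR adjusted p = 7.86e-17. The wild type counts are near 0, and without wild type replicate 2 of set 2 the QKO value was 5.80.

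Col1a1 lies on chromosome 11 from 94797538 to 94814356 on the plus strand. It had 5.76, 4.78 and 6.95 CPM in I53A, against 2.30, 1.90 and 3.13 CPM in wild type. It had 4.06, 4.10 and 4.45 CPM in libraries labelled QKO, against 1.57, 1.21 and 1.72 CPM in wild type. The groups did not overlap in either set. Its log2 fold change was 1.26 ± 0.25 in I53A (edgeR adjusted p = 0.00531) and 1.48 ± 0.22 in libraries labelled QKO (edgeR adjusted p = 1.04e-07). The chains stood closer together in the mutants than in wild type. Per length of exon, Col1a1 was 2.28 ± 0.66 times as high as Col1a2 in I53A and 14.9 ± 4.25 times in wild type (mean ± SD of the ratio, n = 3 each). It was 1.70 ± 0.41 times as high in libraries labelled QKO and 30.3 ± 21.9 times in wild type, where Col1a2 had 1, 6 and 2 counts and the 3 ratios were 50.0, 6.79 and 34.2. The length joins all annotated exons of a gene, 6563 bases for Col1a1 and 12145 for Col1a2. The size of such a ratio depends on these lengths, while its change between groups does not. The difference between the I53A and QKO effects was -0.87 ± 0.61 for Col1a2 (edgeR adjusted p = 0.295) and -0.20 ± 0.31 for Col1a1 (edgeR adjusted p = 0.671), neither past the threshold.

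Type V collagen is a minor fibrillar collagen that sits inside type I fibrils and sets their number and width. Col5a1, the chain most type V molecules share, lies on chromosome 2 from 27741945 to 27895034 on the plus strand. It was the most abundant fibrillar gene in all 4 groups. It had 38.7, 39.6 and 36.4 CPM in I53A, against 24.1, 22.3 and 25.1 CPM in wild type. It had 30.8, 33.0 and 35.1 CPM in libraries labelled QKO, against 13.8, 14.9 and 16.2 CPM in wild type. Every mutant library was above every wild type library of its set, and the replicates lay close together. The log2 fold change was 0.68 ± 0.09 in I53A (edgeR adjusted p = 0.000882) and 1.13 ± 0.08 in libraries labelled QKO (edgeR adjusted p = 3.38e-17). The QKO effect was the larger, and the I53A effect minus the QKO effect was -0.43 ± 0.12 (edgeR adjusted p = 0.0146).

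Col5a2, its common partner, had 6.54, 5.06 and 5.53 CPM in I53A, against 1.63, 1.34 and 0.459 CPM in wild type. Col5a2 rose in I53A by a log2 fold change of 2.27 ± 0.36 (edgeR adjusted p = 0.00182). It had 2.14, 1.18 and 1.31 CPM in libraries labelled QKO, against 0.522, 0.386 and 0.325 CPM. Col5a2 rose in libraries labelled QKO by a log2 fold change of 1.94 ± 0.39 (edgeR adjusted p = 2.40e-05). The groups did not overlap in either set, and the lowest wild type value of set 1 was that of replicate 3. Col5a3, a chain found in fewer tissues, had 9.76, 9.28 and 7.03 CPM in I53A, against 6.35, 6.59 and 6.96 CPM in wild type, which was not called with a log2 fold change of 0.40 ± 0.17 (edgeR adjusted p = 0.0977). I53A replicate 3 lay just above the highest wild type library; the call was made from replicates 1 and 2 of set 1 alone (edgeR adjusted p = 0.00778), with the replicate block (edgeR adjusted p = 0.0456) and without I53A replicate 3 (edgeR adjusted p = 0.0314). Col5a3 had 8.54, 9.38 and 10.5 CPM in libraries labelled QKO, against 4.12, 2.70 and 4.50 CPM in wild type, and rose by a log2 fold change of 1.32 ± 0.15 (edgeR adjusted p = 2.63e-10). The I53A effect minus the QKO effect was -0.90 ± 0.26 (edgeR adjusted p = 0.0129). Per length, Col5a1 was 7.66 ± 1.09 times as high as Col5a2 in I53A and 32.5 ± 25.5 times in wild type, and 26.0 ± 8.47 times in libraries labelled QKO and 43.4 ± 13.3 times in wild type.

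**Figure D2:**
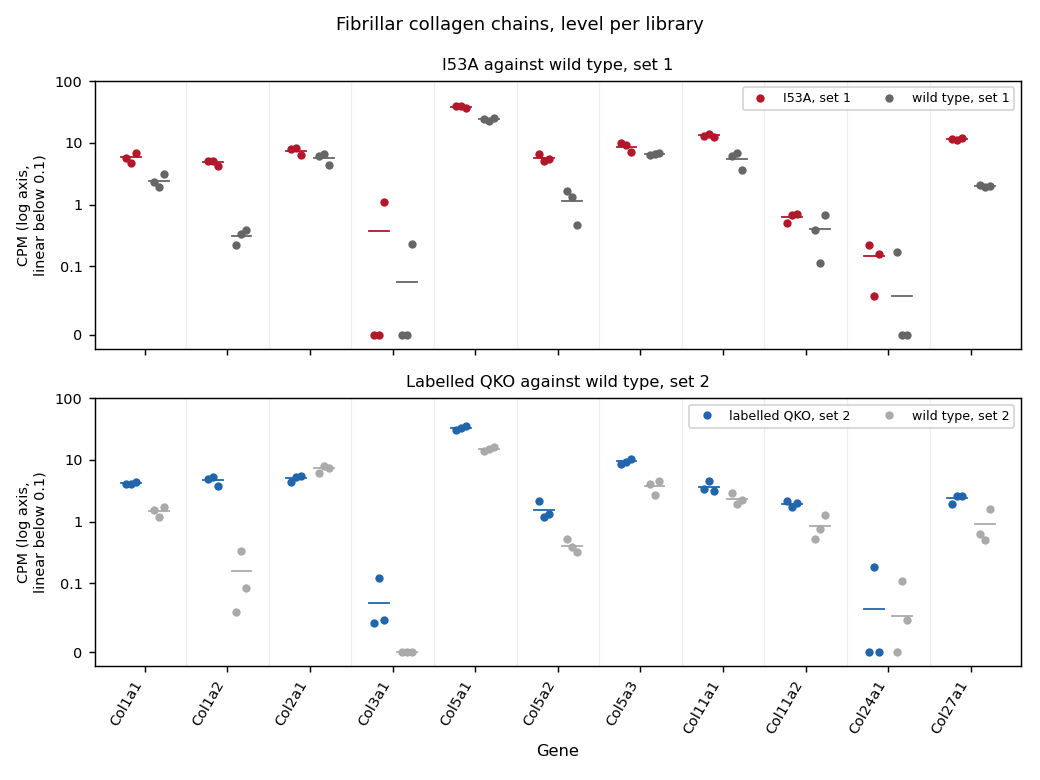
CPM of the 11 fibrillar genes in each library, on a log axis that is linear below 0.1, with the mean of each group as a short line; I53A and wild type of set 1 above, labelled QKO and wild type of set 2 below. Col5a1 is the highest in each group, Col1a2 shows the widest gap between mutant and wild type, and Col3a1 is at 0 in replicates 1 and 2 of set 1.

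Types II and XI make up the fibrils of cartilage. Col2a1, the chain of type II, was the only fibrillar gene that fell in a mutant. It had 4.40, 5.22 and 5.48 CPM in libraries labelled QKO, against 6.21, 8.10 and 7.51 CPM in wild type. Col2a1 fell in libraries labelled QKO, with a log2 fold change of -0.54 ± 0.15 (edgeR adjusted p = 0.00159). It had 7.87, 8.10 and 6.24 CPM in I53A, against 6.07, 6.64 and 4.36 CPM in wild type; the groups overlapped and the value of 0.38 ± 0.20 was not called (edgeR adjusted p = 0.181). The I53A effect minus the QKO effect was 0.93 ± 0.26 (edgeR adjusted p = 0.0104).

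Col11a1, which pairs with Col11a2 in type XI fibrils, had 13.0, 14.1 and 12.3 CPM in I53A, against 6.18, 6.81 and 3.67 CPM in wild type. Col11a1 rose in I53A by a log2 fold change of 1.23 ± 0.22 (edgeR adjusted p = 0.00317). It had 3.42, 4.54 and 3.18 CPM in libraries labelled QKO, against 2.90, 1.93 and 2.27 CPM. Col11a1 rose in libraries labelled QKO by a log2 fold change of 0.64 ± 0.21 (edgeR adjusted p = 0.00941). The groups were separate but close, and the call was lost without QKO replicate 2 (edgeR adjusted p = 0.0806) or wild type replicate 2 (edgeR adjusted p = 0.0598). Col11a2 was a low gene, with 2.14, 1.74 and 2.01 CPM in libraries labelled QKO, against 0.522, 0.772 and 1.30 CPM in wild type, and it rose by 1.15 ± 0.31 (edgeR adjusted p = 0.00145). It had 0.499, 0.675 and 0.711 CPM in I53A, against 0.393, 0.112 and 0.688 CPM in wild type, with overlapping groups and a value of 0.71 ± 0.59 (edgeR adjusted p = 0.391). Per length, Col11a1 was 15.2 ± 3.12 times as high as Col11a2 in I53A and 19.3 ± 20.9 times in wild type, and 1.36 ± 0.42 times in libraries labelled QKO and 2.31 ± 1.43 times in wild type.

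Col27a1, a long fibrillar chain known from developing cartilage, rose in both mutants. It lies on chromosome 4 from 62875038 to 62996025 on the plus strand. It had 11.5, 11.1 and 11.8 CPM in I53A, against 2.08, 1.95 and 1.99 CPM in wild type. It had 1.97, 2.61 and 2.57 CPM in libraries labelled QKO, against 0.638, 0.496 and 1.62 CPM in wild type. In set 1 the replicates lay close together and far apart between groups, whereas in set 2 wild type replicate 3 reached nearly the lowest QKO library. The log2 fold change was 2.51 ± 0.15 in I53A (edgeR adjusted p = 1.77e-05) and 1.31 ± 0.31 in libraries labelled QKO (edgeR adjusted p = 0.000366). Wild type replicate 3 of set 2 decided the size in set 2: without it the QKO value was 2.05. The difference between the effects (I53A minus QKO) was 1.21 ± 0.42 (edgeR adjusted p = 0.0345), and 0.45 without that library (edgeR adjusted p = 0.398). This call was lost under 8 of 17 alternatives: it was also lost without replicate 1 or 2 of I53A, replicate 1 or 2 of wild type in set 1, or any 1 of the QKO libraries, with values from 1.06 to 1.26 and edgeR adjusted p from 0.0508 to 0.0898.

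The remaining fibrillar genes were too low to test. Col3a1, the partner of type I collagen in soft tissue, had 0, 0 and 14 counts in I53A and 0, 0 and 3 counts in wild type, a count ratio of 4.70 (exact 95% interval 1.31 to 25.5, counting error only) that rests on replicate 3 of both groups. It had 1, 2 and 1 counts in libraries labelled QKO and none in wild type. Its neighbour Col5a2 lies 24614 bases away on the other strand. Col24a1 had 7 counts over the 3 I53A libraries and 3 over those of wild type, and 3 in libraries labelled QKO and 3 in wild type.

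Among the other collagens, type VI collagen forms beaded filaments around cells, in which a Col6a1 chain and a Col6a2 chain join Col6a3 or one of the related Col6a4, Col6a5 and Col6a6 chains. The classical chains Col6a1, Col6a2 and Col6a3 rose in I53A, Col6a5 rose in libraries labelled QKO, and Col6a4 rose in both. In libraries labelled QKO, Col6a2 was not called, and Col6a1 and Col6a3 were too low to test. The calls therefore do not show that the classical chains rose in I53A alone. Col6a1 and Col6a2 lie on the minus strand of chromosome 10, 85161 bases apart, and Col6a6, Col6a5 and Col6a4 lie in a row on the minus strand of chromosome 9.

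Col6a1, on chromosome 10 from 76171537 to 76188913 on the minus strand, had 1.94, 1.58 and 1.58 CPM in I53A, against 0.225, 0 and 0.229 CPM in wild type, from 35, 28 and 20 counts and 4, 0 and 3 counts. The log2 fold change was 3.49 ± 0.61 (edgeR adjusted p = 0.00307), and 2.86 without wild type replicate 2, which had no count. In libraries labelled QKO it was too low to test, with 4, 1 and 4 counts, against 3, 6 and 1 counts in wild type. The difference between the effects was 3.78 ± 1.07 (edgeR adjusted p = 0.0126), the largest of the collagen genes, and 3.03 without wild type replicate 2 of set 2 (edgeR adjusted p = 0.0955). Its size rests on low counts in wild type of set 1 and in both groups of set 2. Its partner Col6a2 had 5.54, 3.77 and 4.19 CPM in I53A, against 1.01, 0.782 and 1.07 CPM in wild type. Col6a2 rose in I53A by a log2 fold change of 2.24 ± 0.27 (edgeR adjusted p = 0.000490) with groups that did not overlap. It had 1.79, 2.80 and 1.64 CPM in libraries labelled QKO, against 0.986, 1.05 and 2.09 CPM, with overlapping groups and a value of 0.53 ± 0.29 (edgeR adjusted p = 0.116); without wild type replicate 3 it was 0.99 (edgeR adjusted p = 0.0106). For Col6a2 the I53A effect minus the QKO effect was 1.71 ± 0.46 (edgeR adjusted p = 0.00970). Per length, Col6a2 was 1.39 ± 0.12 times as high as Col6a1 in I53A. This ratio depends on the joined exon lengths, 8326 bases for Col6a2 and 4393 for Col6a1.

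Col6a3 was low in all groups. It had 13, 15 and 8 counts in I53A, against 2, 4 and 1 counts in wild type, and a log2 fold change of 2.31 ± 0.53 (edgeR adjusted p = 0.0102). In libraries labelled QKO it had 9, 9 and 6 counts and none in wild type; it was not tested there and was at least 7.48-fold higher, taking 3 counts over the wild type group as the floor.

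Col6a4 had 9.42, 9.12 and 6.71 CPM in I53A, against 3.54, 3.96 and 2.75 CPM in wild type. It had 6.32, 7.27 and 6.37 CPM in libraries labelled QKO, against 1.51, 1.54 and 0.835 CPM in wild type. The groups were apart in both sets. The log2 fold change was 1.29 ± 0.21 in I53A (edgeR adjusted p = 0.00205) and 2.38 ± 0.21 in libraries labelled QKO (edgeR adjusted p = 2.29e-14), a difference of -1.06 ± 0.32 (edgeR adjusted p = 0.0175; 0.0512 without wild type replicate 3 of set 2). Col6a5, on chromosome 9 from 105758400 to 105862974 on the minus strand, had the smallest p of the type VI genes for a difference between the effects. It had 10.3, 8.20 and 7.72 CPM in libraries labelled QKO, against 2.44, 3.36 and 3.66 CPM in wild type. Col6a5 rose in libraries labelled QKO by a log2 fold change of 1.46 ± 0.16 (edgeR adjusted p = 3.39e-11). It had 2.22, 3.94 and 3.00 CPM in I53A, against 3.99, 4.58 and 3.29 CPM, with overlapping groups and a value of -0.38 ± 0.26 (edgeR adjusted p = 0.298). The I53A effect minus the QKO effect was -1.82 ± 0.32 (edgeR adjusted p = 0.000465). Col6a6 was not called, at 1.03 ± 0.46 in I53A (edgeR adjusted p = 0.112) and 0.84 ± 0.38 in libraries labelled QKO (edgeR adjusted p = 0.0577), where it was called without QKO replicate 3 at 1.09 (edgeR adjusted p = 0.0234) and without wild type replicate 1 at 1.21 (edgeR adjusted p = 0.0204).

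**Figure D3:**
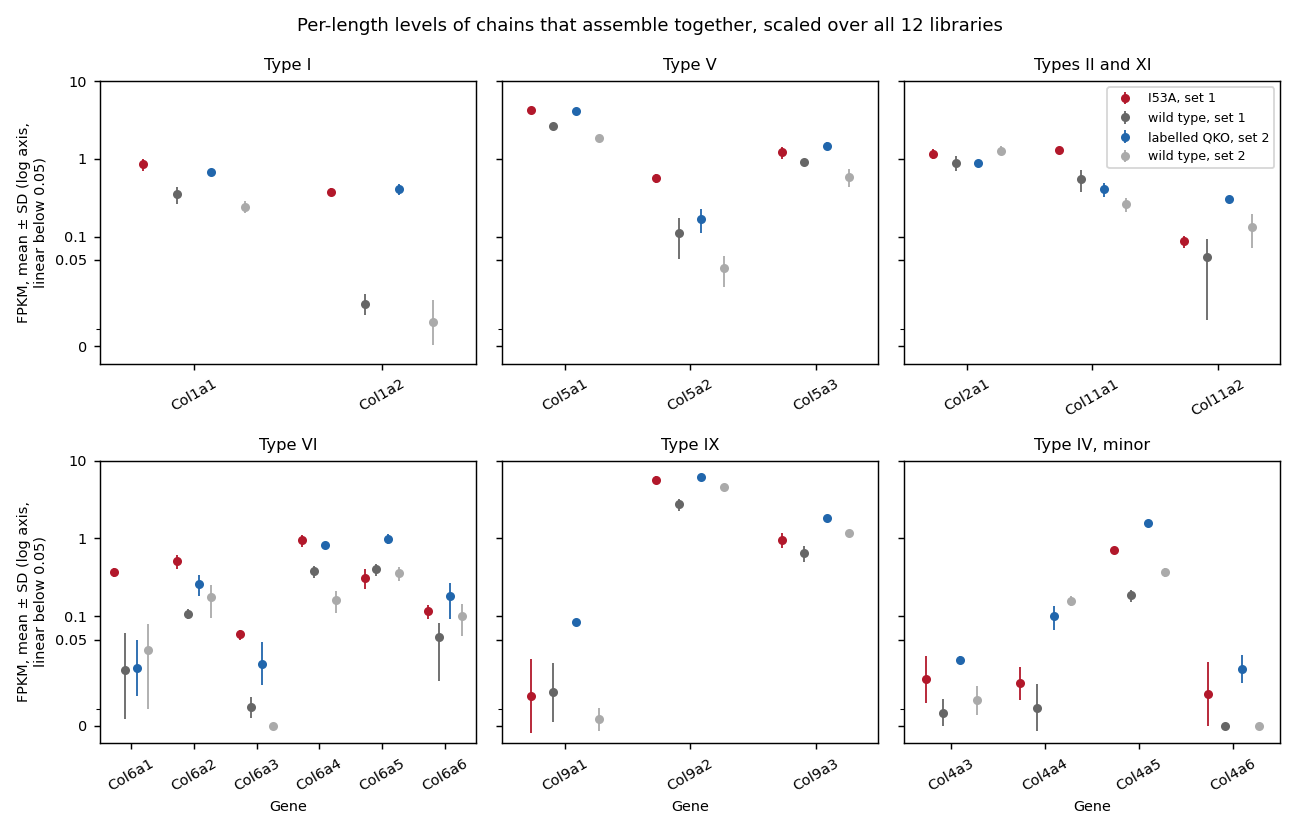
Level per length (FPKM, CPM per kilobase of exon, scaled over all 12 libraries; mean ± SD, n = 3) of chains that assemble together, on a log axis that is linear below 0.05. Within each gene the groups run I53A, its wild type, labelled QKO, its wild type. Col1a2 averages 0.379 FPKM in I53A and 0.0243 FPKM in its wild type, Col6a1 averages 0.368 FPKM in I53A and 0.0323 FPKM in its wild type, and Col6a5 averages 0.990 FPKM in libraries labelled QKO and 0.359 FPKM in its wild type.

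Col9a2, a chain of type IX collagen on the surface of cartilage fibrils, ranked next to Col18a1 per length in all 4 groups, with 5.68 ± 0.650 FPKM in I53A and 2.73 ± 0.450 FPKM in wild type, and 6.13 ± 0.383 FPKM in libraries labelled QKO and 4.64 ± 0.179 FPKM in wild type. It had 18.4, 20.5 and 16.5 CPM in I53A, against 8.26, 10.6 and 8.03 CPM in wild type. It had 17.4, 17.3 and 19.3 CPM in libraries labelled QKO, against 14.04, 13.7 and 13.0 CPM in wild type. The groups did not overlap in either set. It rose by 1.04 ± 0.15 in I53A (edgeR adjusted p = 0.00135) and by 0.41 ± 0.09 in libraries labelled QKO (edgeR adjusted p = 0.000204), and the I53A effect minus the QKO effect was 0.65 ± 0.17 (edgeR adjusted p = 0.00836). Col9a3, its partner, had 4.82, 3.66 and 3.16 CPM in I53A, against 2.08, 2.57 and 3.29 CPM in wild type. It had 6.07, 7.27 and 6.74 CPM in libraries labelled QKO, against 4.41, 4.02 and 4.22 CPM in wild type. Set 1 overlapped and set 2 did not; the gene was called in libraries labelled QKO at 0.66 ± 0.15 (edgeR adjusted p = 0.000263) and not in I53A at 0.57 ± 0.26 (edgeR adjusted p = 0.123), with a difference of -0.06 ± 0.28 (edgeR adjusted p = 0.894). Its exons share 234 bases, 6.07% of their length, with Tcfl5 on the other strand, and the counting used no strand, so reads there cannot be told apart. Tcfl5 rose in both comparisons too, by 0.76 ± 0.13 in I53A (edgeR adjusted p = 0.00232) and 0.95 ± 0.06 in libraries labelled QKO (edgeR adjusted p = 8.66e-19). Col9a1, the third chain of type IX, had 10, 7 and 8 counts in libraries labelled QKO and 0, 1 and 0 counts in wild type, a count ratio of 23.4 (exact 95% interval 3.83 to 960.0, counting error only), and 4, 1 and 0 counts in I53A and 0, 3 and 2 counts in wild type.

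Type IX belongs to the collagens that bind to the surface of fibrils and interrupt their helix (FACIT). Of the 9 FACIT genes, 5 were tested in each comparison. In I53A 2 rose, where 18.1% of all genes tested rose, and in libraries labelled QKO all 5 rose, where 28.7% did. Col14a1 was tested only in I53A and Col16a1 only in libraries labelled QKO, so the counts cover different genes. Of 7 FACIT genes tested for a difference between the effects, 1 was called. Col22a1, known from junctions between tissues such as muscle and tendon, had 7.87, 8.10 and 6.87 CPM in I53A, against 2.08, 3.07 and 2.29 CPM in wild type. It had 7.13, 7.89 and 7.54 CPM in libraries labelled QKO, against 1.51, 1.71 and 1.62 CPM in wild type. The mutant libraries of both sets lay together well above wild type, with log2 fold changes of 1.61 ± 0.20 (edgeR adjusted p = 0.000617) in I53A and 2.21 ± 0.18 in libraries labelled QKO (edgeR adjusted p = 3.33e-15). Col20a1 had 7.52, 7.09 and 6.23 CPM in libraries labelled QKO, against 3.13, 3.20 and 3.57 CPM in wild type, and rose by 1.07 ± 0.16 (edgeR adjusted p = 1.49e-07). It had 3.66, 2.48 and 2.92 CPM in I53A, against 1.80, 2.07 and 2.22 CPM; the groups were apart, but the value of 0.58 ± 0.25 was not called (edgeR adjusted p = 0.101). Col16a1 had 2.52, 2.73 and 2.43 CPM in libraries labelled QKO, against 1.39, 1.27 and 1.39 CPM. Col16a1 rose in libraries labelled QKO by a log2 fold change of 0.92 ± 0.25 (edgeR adjusted p = 0.00179), and was too low to test in I53A. Col14a1 was tested in I53A and not called, at -0.26 ± 0.43 (edgeR adjusted p = 0.680). In libraries labelled QKO it was not tested, with 10, 7 and 4 counts, against 8, 2 and 6 in wild type. Col12a1 and Col19a1 were tested in neither comparison; Col19a1 had at most 4 counts over the 3 libraries of a group. Col12a1 had 8, 14 and 13 counts in I53A and 4, 3 and 5 in wild type, and 11, 16 and 11 counts in libraries labelled QKO and 2, 7 and 4 in wild type.

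The minor type IV chains, which join into the networks of specialised basement membranes such as those of kidney, lie in head-to-head pairs: Col4a3 and Col4a4 are 71 bases apart on chromosome 1, and Col4a5 and Col4a6 are 1308 bases apart on chromosome X. Col4a5, on chromosome X from 137909928 to 138123778 on the plus strand, had 5.38, 5.06 and 4.58 CPM in I53A, against 1.52, 1.396 and 1.07 CPM in wild type. It had 9.06, 9.94 and 11.0 CPM in libraries labelled QKO, against 2.09, 2.65 and 2.23 CPM in wild type. The groups did not overlap in either set, and the log2 fold changes were 1.90 ± 0.22 (edgeR adjusted p = 0.000453) and 2.11 ± 0.16 (edgeR adjusted p = 1.27e-16), with a difference of -0.19 ± 0.26 (edgeR adjusted p = 0.618). Col4a6, its neighbour, had 6, 1 and 1 counts in I53A and 6, 5 and 4 counts in libraries labelled QKO, and none in any wild type library. With 3 counts over the wild type group as the floor, it was 4.68-fold higher in libraries labelled QKO and 2.68-fold higher in I53A. These folds leave out the counting error of the mutant counts, and most I53A counts came from replicate 1. Col4a3 had 8, 3 and 3 counts in I53A and 0, 3 and 1 in wild type, and 8, 6 and 8 counts in libraries labelled QKO and 1, 4 and 3 in wild type. Col4a4 was tested only in set 2, where it had 0.726, 0.559 and 1.08 CPM in libraries labelled QKO, against 1.45, 1.21 and 1.07 CPM in wild type, with overlapping groups and a value of -0.62 ± 0.35 (edgeR adjusted p = 0.124). The main type IV chains, left out of the 41, gave another picture: Col4a1 and Col4a2 summed to 1114 to 1181 CPM in I53A and 49.8 to 58.9 CPM in wild type, and to 63.2 to 71.4 CPM in libraries labelled QKO and 61.3 to 74.1 CPM in wild type.

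Col7a1 and Col8a2 fell in set 2. Col7a1, the chain of the anchoring fibrils below the skin's epithelium, had 4.61, 5.22 and 5.48 CPM in libraries labelled QKO, against 9.11, 8.21 and 9.74 CPM in wild type. Col7a1 fell in libraries labelled QKO, with a log2 fold change of -0.83 ± 0.14 (edgeR adjusted p = 8.75e-07). It had 10.8, 8.78 and 6.24 CPM in I53A, against 10.4, 9.10 and 4.89 CPM; the groups overlapped, replicate 3 was the lowest in both, and the value was 0.08 ± 0.30 (edgeR adjusted p = 0.870). The difference of 0.92 ± 0.34 was just past the threshold (edgeR adjusted p = 0.0486), and it was lost under 10 of 17 alternatives, with a highest edgeR adjusted p of 0.134. Col8a2, a chain of the network under the cornea's endothelium, had 0.684, 0.559 and 0.374 CPM in libraries labelled QKO, against 1.10, 1.10 and 1.21 CPM. Col8a2 fell in libraries labelled QKO, with a log2 fold change of -1.07 ± 0.38 (edgeR adjusted p = 0.0139). It was not called by DESeq2 (adjusted p = 0.0721) or without QKO replicate 3 (edgeR adjusted p = 0.0911). It had 2.61, 1.74 and 1.18 CPM in I53A, against 1.46, 1.12 and 0.688 CPM, with overlapping groups and a value of 0.75 ± 0.40 (edgeR adjusted p = 0.178), and the I53A effect minus the QKO effect was 1.84 ± 0.53 (edgeR adjusted p = 0.0141). Col8a1 and Col10a1 had at most 7 counts over the 3 libraries of any group and were not tested.

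Of the 4 genes of collagens with a transmembrane segment, Col13a1 rose in I53A and Col17a1 and Col25a1 in libraries labelled QKO. Col13a1, found at cell adhesions and at the junction of nerve and muscle, lies on chromosome 10 from 61300984 to 61441856 on the minus strand. It had 7.43, 5.96 and 5.37 CPM in I53A, against 2.13, 1.95 and 2.06 CPM in wild type. Col13a1 rose in I53A by a log2 fold change of 1.61 ± 0.20 (edgeR adjusted p = 0.000634). It had 14.5, 16.9 and 13.6 CPM in libraries labelled QKO, against 15.8, 15.3 and 14.5 CPM, with overlapping groups and a value of -0.03 ± 0.10 (edgeR adjusted p = 0.841). The I53A effect minus the QKO effect was 1.66 ± 0.21 (edgeR adjusted p = 2.30e-05). The wild type groups also stood apart: per length and on the scale of all 12 libraries, Col13a1 was at 1.29 ± 0.222 FPKM in I53A and 0.419 ± 0.0180 FPKM in its wild type, and at 3.42 ± 0.393 FPKM in libraries labelled QKO and 3.48 ± 0.153 FPKM in its wild type, so both groups of set 2 were above I53A; set and processing cannot be told apart here.

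Col25a1, a neuronal membrane collagen, had 1.67, 2.61 and 2.20 CPM in libraries labelled QKO, against 0.116, 0.661 and 0.139 CPM in wild type, and rose by 2.80 ± 0.41 (edgeR adjusted p = 8.72e-08). Wild type replicate 2 was above the other wild type libraries, and without it the value was 3.98. In I53A it was too low to test, with 8, 12 and 9 counts, against 2, 1 and 2 counts. Col17a1, a chain of the hemidesmosomes that anchor epithelial cells, had 2.82, 2.86 and 3.04 CPM in libraries labelled QKO, against 1.91, 1.87 and 2.18 CPM. Col17a1 rose in libraries labelled QKO by a log2 fold change of 0.54 ± 0.23 (edgeR adjusted p = 0.0375) that was lost under 7 of 12 alternatives, with DESeq2 giving the highest adjusted p of 0.121. It had 7.48, 6.02 and 8.29 CPM in I53A, against 6.46, 4.97 and 4.74 CPM, with overlapping groups and a value of 0.42 ± 0.19 (edgeR adjusted p = 0.128). Col23a1 was not called, at 0.13 ± 0.47 in I53A (edgeR adjusted p = 0.857) and 0.13 ± 0.33 in libraries labelled QKO (edgeR adjusted p = 0.763). Col28a1, a beaded filament chain, and Col15a1 were not tested; Col28a1 had 12 counts over the 3 I53A libraries and 1 over wild type, a count ratio of 12.1 (exact 95% interval 1.79 to 516, counting error only), and 1, 5 and 3 counts in libraries labelled QKO and none in wild type.

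**Figure D4:**
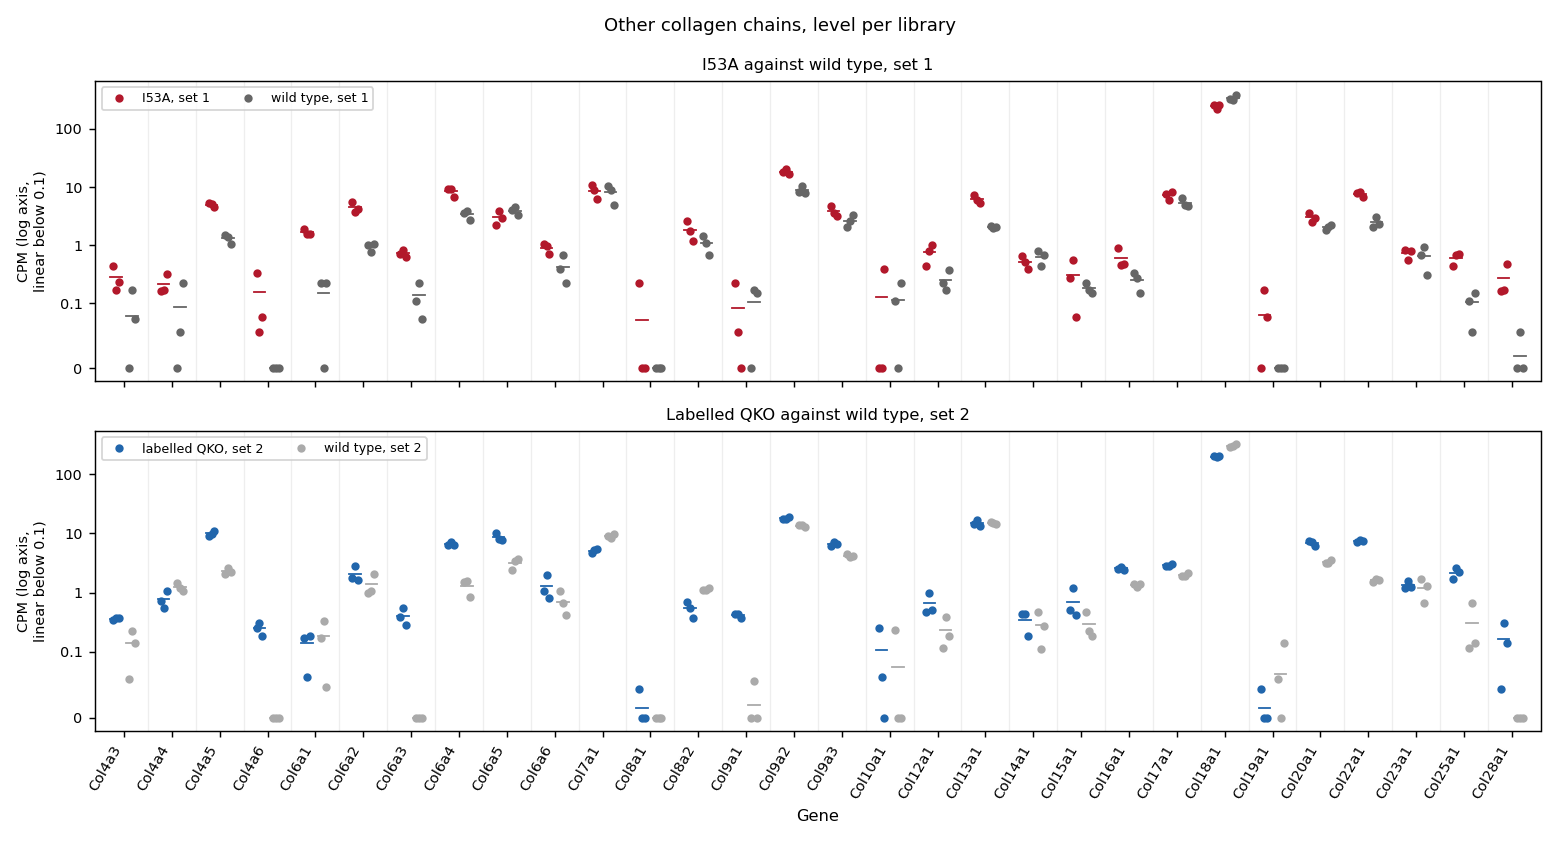
CPM of the 30 other collagen genes in each library, on a log axis that is linear below 0.1, with the mean of each group as a short line; I53A and wild type of set 1 above, labelled QKO and wild type of set 2 below. Col18a1 lies far above every other gene and is lower in both mutants, while Col4a5, Col6a4 and Col22a1 are higher in both.

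Col18a1 encodes a collagen of basement membranes whose end can be cleaved off as endostatin, an inhibitor of vessel growth, and it was by far the most abundant of the 41 genes. It lies on chromosome 10 from 76514923 to 76629293 on the minus strand. It had 253, 222 and 262 CPM in I53A, against 330.1, 308.9 and 388 CPM in wild type. It had 203, 193 and 201 CPM in libraries labelled QKO, against 291, 300.8 and 319.5 CPM in wild type. All mutant libraries were below all wild type libraries of their set. The log2 fold change was -0.48 ± 0.10 in I53A (edgeR adjusted p = 0.00823) and -0.61 ± 0.04 in libraries labelled QKO (edgeR adjusted p = 4.05e-18). The difference between the effects was 0.15 ± 0.11 and not called (edgeR adjusted p = 0.310); with the replicate block it was 0.16 and called (edgeR adjusted p = 0.0277), as it was at 0.20 from replicates 1 and 2 of set 1 (edgeR adjusted p = 0.0182) and at 0.24 without wild type replicate 3 of set 1 (edgeR adjusted p = 0.0460). Its relative Col15a1, the other chain of the kind called multiplexin, had 5, 10 and 1 counts in I53A and 4, 3 and 2 in wild type, and 12, 19 and 9 counts in libraries labelled QKO and 8, 4 and 4 in wild type.

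Col18a1 held a smaller share of the summed collagen CPM in both mutants, and mutant and wild type libraries did not overlap in it. Of the summed level of the 41 genes, Col18a1 held 57.3 ± 3.09% in I53A and 78.3 ± 3.04% in wild type (SD, n = 3 each), and 54.2 ± 1.61% in libraries labelled QKO and 75.8 ± 0.54% in wild type. The sum of all 41 was 428 ± 19.9 CPM in I53A and 436 ± 34.7 CPM in wild type, and 367 ± 2.68 CPM in libraries labelled QKO and 400.2 ± 17.1 CPM in wild type. Without Col18a1 the sum was 183 ± 12.1 CPM in I53A and 93.8 ± 6.38 CPM in wild type, and 168 ± 6.85 CPM in libraries labelled QKO and 96.6 ± 2.73 CPM in wild type. The fibrillar genes alone summed to 92.5 to 99.0 CPM in I53A and 47.0 to 49.5 CPM in wild type, and to 62.5 to 68.5 CPM in libraries labelled QKO and 30.3 to 35.6 CPM in wild type. No mutant library overlapped with wild type in the fibrillar sum or in the sum without Col18a1. None of the 41 was at 0 in all 3 libraries of I53A or of labelled QKO, while 3 were in wild type of set 1 (Col4a6, Col8a1 and Col19a1) and 5 in wild type of set 2 (Col3a1, Col4a6, Col6a3, Col8a1 and Col28a1). Over all genes, too, more had a count in the mutants, with 20450 to 21195 per library in I53A and 19719 to 20205 in wild type, and 20836 to 21519 in libraries labelled QKO and 19419 to 19931 in wild type. In CPM, 22 genes averaged above 1 in I53A and 19 in wild type, and 25 in libraries labelled QKO and 21 in wild type.

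**Figure D5:**
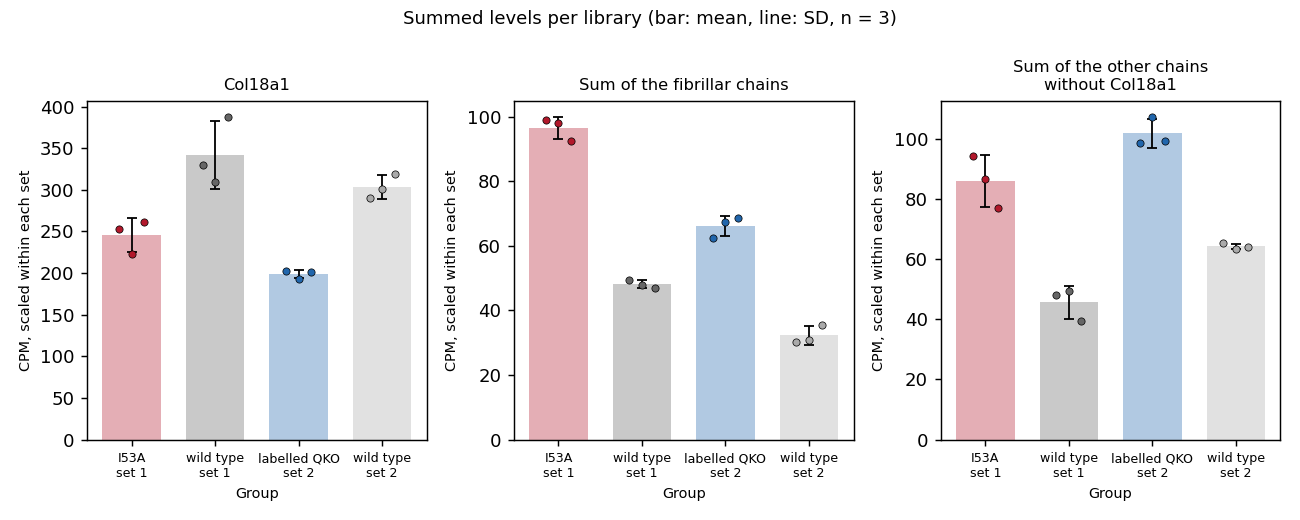
CPM, scaled within each set, of Col18a1 (left), of the 11 fibrillar genes summed (middle) and of the other collagen genes summed without Col18a1 (right), for I53A, its wild type, labelled QKO and its wild type. Bars are means, points are the 3 libraries and lines are the SD; Col18a1 is lower in both mutants and both sums are higher, at 96.5 CPM in I53A and 48.2 CPM in wild type for the fibrillar sum.

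Genes for the proteins that process collagen chains were taken from lists of known members. Of the 12 tested genes for hydroxylation of proline and lysine, 8 rose and 1 fell in I53A, where 18.1% of all genes rose and 17.4% fell. The prolyl hydroxylase genes P4ha1 and P4ha2 were among the largest changes: P4ha2 averaged 120.5 ± 12.1 CPM in I53A and 21.8 ± 1.90 CPM in wild type. P4ha2 rose in I53A by a log2 fold change of 2.47 ± 0.11 (edgeR adjusted p = 4.18e-06), and P4ha1 rose by 1.91 ± 0.08 (edgeR adjusted p = 3.11e-06). Leprel1, a prolyl 3-hydroxylase gene, had 77, 70 and 70 counts in I53A and 0, 0 and 3 in wild type, a count ratio of 72.8 (exact 95% interval 24.6 to 356, counting error only). In libraries labelled QKO, 3 of 11 rose and 3 fell, where 28.7% of all genes rose and 29.0% fell, and the changes were small: Plod2, a lysyl hydroxylase, rose by 0.48 ± 0.05 (edgeR adjusted p = 7.13e-12), P4ha2 rose by 0.38 ± 0.08 (edgeR adjusted p = 8.25e-05), and Crtap, a partner of the prolyl 3-hydroxylases, had a log2 fold change of -0.38 ± 0.06 (edgeR adjusted p = 1.15e-06).

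Of the 6 tested genes for chaperones and export, 2 rose and none fell in I53A, where 35.5% of all genes were called, and none rose and 3 fell in libraries labelled QKO, where 57.7% were. Serpinh1, the collagen chaperone Hsp47, averaged 134 ± 5.22 CPM in I53A and 10.2 ± 0.658 CPM in wild type. Serpinh1 rose in I53A by a log2 fold change of 3.72 ± 0.09 (edgeR adjusted p = 1.86e-07). In libraries labelled QKO it averaged 35.8 ± 1.46 CPM, and 46.9 ± 2.88 CPM in wild type. Serpinh1 fell in libraries labelled QKO, with a log2 fold change of -0.39 ± 0.06 (edgeR adjusted p = 8.44e-07). The folding enzyme gene Fkbp14 rose in I53A by 0.70 ± 0.15 (edgeR adjusted p = 0.00701). Its relative Fkbp10 averaged 10.7 ± 0.468 CPM in libraries labelled QKO and 31.5 ± 1.35 CPM in wild type. Fkbp10 fell in libraries labelled QKO, with a log2 fold change of -1.56 ± 0.09 (edgeR adjusted p = 7.60e-22), and the export gene Ctage5 had -0.35 ± 0.05 (edgeR adjusted p = 1.79e-07). The difference between the effects was 4.13 ± 0.11 for Serpinh1 (edgeR adjusted p = 3.32e-12).

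Among 7 tested genes for the removal of propeptides, 2 rose and 1 fell in I53A, near the 35.5% called over all genes, and 4 rose and 1 fell in libraries labelled QKO, where 57.7% of all genes were called. Bmp1, which cleaves the C-terminal end of fibrillar procollagens, averaged 13.9 ± 0.816 CPM in I53A and 3.81 ± 0.201 CPM in wild type, and rose by 1.86 ± 0.14 (edgeR adjusted p = 4.59e-05). Pcolce, which enhances that cleavage, had a log2 fold change of -0.33 ± 0.09 in I53A (edgeR adjusted p = 0.0279), lost under 4 of the 6 fits that leave out 1 library, with edgeR adjusted p between 0.0530 and 0.102. Adamts3, which cleaves the N-terminal end, averaged 6.46 ± 0.983 CPM in libraries labelled QKO and 0.466 ± 0.152 CPM in wild type, and rose by 3.76 ± 0.26 (edgeR adjusted p = 1.78e-18). Its relative Adamts2 rose by 0.81 ± 0.25 in libraries labelled QKO (edgeR adjusted p = 0.00445). The protease gene Mep1b rose in I53A by 1.29 ± 0.16 (edgeR adjusted p = 0.000508) and in libraries labelled QKO by 2.20 ± 0.14 (edgeR adjusted p = 1.48e-19).

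For crosslinking and fibril assembly, 4 of 7 tested genes rose and none fell in I53A, where 18.1% of all genes rose and 17.4% fell. Of those tested in libraries labelled QKO, 2 of 6 rose and 2 fell, near the shares of all genes (28.7% and 29.0%). Bgn, a small proteoglycan that binds fibrils, averaged 6.36 ± 1.24 CPM in I53A and 0.445 ± 0.0986 CPM in wild type. Bgn rose in I53A by a log2 fold change of 3.79 ± 0.28 (edgeR adjusted p = 4.82e-05). Sparc, an abundant collagen-binding protein, averaged 654 ± 22.3 CPM in I53A and 184 ± 12.3 CPM in wild type. Sparc rose in I53A by a log2 fold change of 1.83 ± 0.08 (edgeR adjusted p = 3.11e-06), and rose in libraries labelled QKO by 0.71 ± 0.05 (edgeR adjusted p = 3.12e-19). Loxl2, a crosslinking lysyl oxidase, rose in I53A by 1.82 ± 0.14 (edgeR adjusted p = 4.81e-05) and in libraries labelled QKO by 1.39 ± 0.08 (edgeR adjusted p = 5.64e-22), while Loxl1 had -0.92 ± 0.17 in libraries labelled QKO (edgeR adjusted p = 6.68e-06). Loxl1 was called higher in I53A, and Fn1 was called lower in libraries labelled QKO. The list summed to 2027 to 2218 CPM in I53A and 1632 to 1735 CPM in wild type. In set 2 it summed to 1607 to 1746 CPM in libraries labelled QKO and 1886 to 2116 CPM in wild type.

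Of the collagen receptor genes, 3 of 6 tested rose and 1 fell in I53A, where 18.1% of all genes rose and 17.4% fell. Of those tested in libraries labelled QKO, 3 of 7 rose and 1 fell, near the 57.7% called over all genes. Itgb1 was the gene that fell in each comparison. The receptor genes summed to 233 to 250 CPM in I53A and 300 to 316 CPM in wild type. In set 2 they summed to 284 to 298 CPM in libraries labelled QKO and 310 to 334 CPM in wild type. Ddr2, a receptor kinase for fibrillar collagen, averaged 15.5 ± 0.844 CPM in libraries labelled QKO and 0.825 ± 0.207 CPM in wild type. Ddr2 rose in libraries labelled QKO by a log2 fold change of 4.22 ± 0.18 (edgeR adjusted p = 2.46e-27), and rose in I53A by 0.53 ± 0.11 (edgeR adjusted p = 0.00669). Mrc2, which takes collagen into cells, rose by 1.28 ± 0.24 in I53A (edgeR adjusted p = 0.00400) and by 0.82 ± 0.19 in libraries labelled QKO (edgeR adjusted p = 0.000286). The integrin chain gene Itga1 rose in I53A by 1.90 ± 0.34 (edgeR adjusted p = 0.00349), and Itga11 had 16, 9 and 12 counts in libraries labelled QKO and 1, 1 and 3 in wild type, a log2 fold change of 2.70 ± 0.64 (edgeR adjusted p = 0.000295). Among 3 tested genes for collagen degradation, 2 rose in I53A, and 2 rose and 1 fell in libraries labelled QKO, beside 35.5% and 57.7% of all genes called. Mmp14, a membrane-bound collagenase, rose in I53A by 0.68 ± 0.11 (edgeR adjusted p = 0.00172) and fell in libraries labelled QKO, with -1.14 ± 0.09 (edgeR adjusted p = 1.06e-16). Mmp9 rose in I53A by 1.57 ± 0.28 (edgeR adjusted p = 0.00336) and in libraries labelled QKO by 0.80 ± 0.28 (edgeR adjusted p = 0.0134), a call lost by DESeq2 (adjusted p = 0.0705) and without QKO replicate 3 or wild type replicate 2 (edgeR adjusted p = 0.117 in both). Mmp2 rose in libraries labelled QKO by 0.49 ± 0.07 (edgeR adjusted p = 1.39e-07).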

How the data were processed

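RNA-seq counts of 12 libraries were used; the other samples of the series were not analysed here. The authors deposited raw read-pair counts per gene, per the file headers made with featureCounts 1.6.3 on a GENCODE annotation of mm9 by gene name, with no strand option. The submitters' processing notes name Bowtie2, SAMtools, HISAT2, featureCounts and DESeq2 and the builds mm9 and dm6, without versions; per the file headers the 6 alignments of set 1 and the 6 of set 2 are named in different styles, and the aligner of each set is not given in the sources. Levels were therefore tested only within a set or as a difference of within-set effects.

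Each comparison used edgeR 4.0.16 (R 4.3.3) on its 6 libraries: TMM scaling, filterByExpr, the robust quasi-likelihood F test, two-sided, with Benjamini-Hochberg adjustment over all genes tested and a threshold of 0.05. The difference between effects was an interaction over 12 libraries. Fold changes are log2 of mutant over wild type, and SE is the absolute log2 fold change divided by the square root of F. CPM is TMM-scaled over the set's libraries; FPKM is CPM scaled over 12 libraries per kilobase of the deposited exon length. A group with no count was given a floor of 3 counts over its libraries, and groups of 1 to 3 counts an exact 95% interval of the ratio. Intervals and floors cover counting error only, and a fold over the floor leaves out the counting error of the mutant group.

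Replicate numbers come from the labels. In set 1 the deviations of same-numbered libraries from their group means correlated at 0.34, 0.40 and 0.61. I53A replicate 1 with wild type replicate 2 gave 0.33, and I53A replicate 2 with wild type replicate 1 gave 0.30. The values thus tie replicate 3 of both groups but do not settle a pairing of replicates 1 and 2 by number. The replicate block, which takes the numbers as pairs, is given only as an alternative. Alternatives were another scaling, DESeq2 1.42.0, other filters, a spread from all 12 libraries, a replicate block, replicates 1 and 2 of set 1 alone, and each library left out. The code was tested on simulated data. Values per library are given for genes called in any test whose higher group averaged at least 1 CPM, with the chains of the same molecule. Of each pathway list, up to 3 called genes with the largest fold change per comparison are named. Col6a3, Itgb1, Fn1, genes without a test and single marker genes were named after their values were seen. The members and lists were chosen with earlier results of these data known.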

Additional observations from a re-analysis of the deposited data

Results flagged for a closer look

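For 12 collagen genes the I53A effect and the effect in libraries labelled QKO differed in edgeR's test of the difference itself (adjusted p under 0.05), where 18.0% of the 16501 genes tested were higher in this difference and 18.1% were lower. Of the 31 collagen genes tested, 8 had a larger value in I53A. Col6a1 differed by 3.78 ± 1.07 (log2, I53A effect minus QKO effect, ± SE), Col8a2 by 1.84 ± 0.53, Col6a2 by 1.71 ± 0.46 and Col13a1 by 1.66 ± 0.21. Col6a1 was too low to test within set 2, with 4, 1 and 4 counts in libraries labelled QKO and 3, 6 and 1 in wild type. The size of its difference therefore rests on low counts. Col27a1 differed by 1.21 ± 0.42, Col2a1 by 0.93 ± 0.26, Col7a1 by 0.92 ± 0.34 and Col9a2 by 0.65 ± 0.17. The other 4 had a larger value in libraries labelled QKO: Col6a5 differed by -1.82 ± 0.32, Col6a4 by -1.06 ± 0.32, Col5a3 by -0.90 ± 0.26 and Col5a1 by -0.43 ± 0.12. Of these 12, Col5a1, Col6a4, Col9a2 and Col27a1 rose in both comparisons. The call was lost under 10 of 17 alternatives for Col7a1 (highest edgeR adjusted p = 0.134) and under 8 of 17 for Col27a1 (highest edgeR adjusted p = 0.398). It was also lost without wild type replicate 2 of set 2 for Col6a1 (edgeR adjusted p = 0.0955) and without wild type replicate 3 of set 2 for Col6a4 (edgeR adjusted p = 0.0512). The sets differ in wild type group, in the naming of their alignments and in depth, and the part of these in the differences was not tested.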

How the results depend on the processing

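Of the single-gene values under the alternatives, 1535 kept direction and side of the threshold, 14 passed it newly, 38 no longer passed it and 32 changed sign. The sign changes fell on 12 values that were not called with either sign (lowest edgeR adjusted p of a value with the other sign, 0.557). Leaving out 1 library, the log2 fold changes of these ranged as follows: in I53A, Col7a1 -0.18 to 0.29 and Col23a1 -0.17 to 0.51 (-0.22 from replicates 1 and 2 alone); in libraries labelled QKO, Col13a1 -0.11 to 0.040 and Col23a1 -0.17 to 0.40; for the difference, Col6a6 -0.19 to 0.67, Col9a3 -0.25 to 0.10 (0.23 from replicates 1 and 2 alone), Col11a2 -0.89 to 0.13 (0.062 from replicates 1 and 2 alone), Col12a1 -0.48 to 0.46, Col16a1 -0.11 to 0.53, Col17a1 -0.20 to 0.053, Col23a1 -0.29 to 0.40 (-0.33 from replicates 1 and 2 alone) and Col25a1 -1.52 to 0.037. Among calls gained, Col9a3 in I53A was called from replicates 1 and 2 alone (edgeR adjusted p = 0.00921) and with the spread taken from 12 libraries (edgeR adjusted p = 0.0299), that spread also called Col20a1 in I53A (edgeR adjusted p = 0.0257), Col6a6 in libraries labelled QKO was called in 3 settings (edgeR adjusted p from 0.0204 to 0.0493), and the difference for Col4a4 was called without wild type replicate 3 of set 1 (edgeR adjusted p = 0.0310). In I53A, the replicate block gave 4371 genes higher and 4427 lower (2808 and 2704 without it), replicates 1 and 2 alone gave 4197 and 4146, and with the spread from 12 libraries 13 other collagen genes were higher in place of 8. For the difference between effects, leaving out 1 library gave 1 to 2 fibrillar genes higher and 1 to 2 other collagen genes lower. The cause of these shifts was not tested. In set 2 the same-numbered libraries correlated at 0.03, -0.01 and 0.08, which shows no shared deviation and does not settle whether they were paired. There the replicate block gave 4517 genes higher and 4563 lower, with 18 collagen genes higher and 4 lower as without it. In I53A the block called Col5a3 newly, gave 15 collagen genes higher and 1 lower, and for the difference called Col18a1. DESeq2 called 15 collagen genes higher and 1 lower in I53A, and 20 higher and 3 lower in libraries labelled QKO. Low counts limit the 14 genes of each comparison that were not tested.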
